A study of Mus musculus with 8 samples.

Results

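The 30 genes described here encode the mitochondrial pathway that oxidises fatty acids, the proteins that supply it and the regulators that set its activity. They were taken by name, as every probe whose gene name in the scanner files is 1 of these 30, and gave 42 of the 55681 probes and 30 of the 35019 gene names on the array. Of the 30 genes 19 had 1 probe, 10 had 2 and Ppara had 3. The probe with the highest mean over the 8 arrays stands for its gene, and other probes are described where a call turned on them. Over the members with several probes, 66 pairs of a gene and a comparison were read by more than 1 probe, and in 19 of them some probes passed and others did not, while in 0 did probes pass in opposite directions.

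Adult heart muscle draws most of its energy from fatty acids. They are bound in the cytosol, activated to acyl-CoA, carried into mitochondria by the carnitine shuttle and shortened in rounds of dehydrogenation, hydration, a further oxidation and thiolysis, with the electrons passed on by the electron transfer flavoprotein. In the heart, the nuclear receptors Ppara and Esrra and the coactivators Ppargc1a and Ppargc1b drive transcription of many of these genes.

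RNA came from C57BL/6 mice, in 4 groups of 2 samples each. Passage-8 cells are derivatives, at passage 8 in culture, of c-kit+/CD45+ cells. CD45-negative cells are primary cells sorted as c-kit+/CD45- from explant cultures of left atrial appendage, an outpouching of the atrium, after strong digestion with 0.25% trypsin and 0.1% collagenase D. CD45-positive cells are primary cells sorted as c-kit+/CD45+ from the same tissue after weak digestion with 0.05% trypsin and 0.1% collagenase D. Left ventricle, the study's control, is biopsied ventricular wall. The cells came from mice 8 to 12 weeks old and the ventricle from mice 12 weeks old. c-kit is a receptor tyrosine kinase and CD45, encoded by Ptprc, a surface phosphatase of white blood cells. Whether the 2 samples of a group come from different mice or cultures is not in the labels, and the p-values therefore reflect sample-to-sample spread that could be technical alone.

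Levels are log2 signal relative to the 75th percentile of the same array, so 0 is that percentile, and differences compare shares of signal, not amounts per cell. The 75th percentile lay between 426 and 976 signal units, and 51.5% to 69.9% of spots on an array exceeded background clearly. Over the 30 genes the replicates differed by a root mean square SD of 0.12 log2 units in passage-8 cells, 0.89 in CD45-negative cells, 0.17 in CD45-positive cells and 0.38 in left ventricle, with n = 2 arrays each, so the number of arrays limits the precision. The sort marker Ptprc stood at -5.57 and -5.18 in passage-8 cells, -5.52 (not well above background) and -3.34 in CD45-negative cells, 2.04 and 1.93 in CD45-positive cells, against -2.33 and -2.89 in ventricle.

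The cells carried little cardiomyocyte RNA by marker genes. Summed over 12 cardiomyocyte markers, signal as a multiple of the 75th percentile was 6.08 and 6.40 in passage-8 cells, 0.837 and 1.77 in CD45-negative cells, 1.55 and 1.67 in CD45-positive cells, against 6570 and 5957 in left ventricle. All 12 were lower in each cell group than in ventricle, and 6 to 8 of them were well above background on a cell array. The cardiac myosin gene Myh6 stood at -4.78 and -4.11 in passage-8 cells, -4.27 and -5.73 in CD45-negative cells, -4.03 and -4.15 in CD45-positive cells, against 9.72 and 9.38 in ventricle. The sum over 12 macrophage markers was 33.8 and 34.3 in passage-8 cells, 60.5 and 106 in CD45-negative cells, 1033 and 1009 in CD45-positive cells, against 107.1 and 98.96 in ventricle. The sum over 9 fat cell markers was 0.294 and 0.426 in passage-8 cells, 0.188 and 0.685 in CD45-negative cells, 0.367 and 0.394 in CD45-positive cells, against 20.3 and 35.9 in ventricle. Of 10 endothelial markers 8 were lower and 0 higher in each cell group than in ventricle, and their sum was 16.1 to 36.6 on the cell arrays, against 163 and 173 in ventricle. Of 10 fibroblast markers, passage-8 cells had 3 higher and 1 lower, CD45-negative cells 7 higher and 0 lower, and CD45-positive cells 5 higher and 2 lower.

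The fatty acid oxidation genes stood far lower in all 3 cell groups than in left ventricle. The median level of the 30 genes was 1.99 and 2.04 on the passage-8 arrays, 2.09 and 1.45 on the CD45-negative arrays, 2.44 and 2.58 on the CD45-positive arrays, and 6.10 and 6.08 on the ventricle arrays. The cell arrays did not overlap the ventricle arrays in this median. In each of the 3 comparisons with ventricle 27 of 30 members were lower and 0 higher. A member passed with limma at a Benjamini-Hochberg adjusted p under 0.05 over all tested genes and a log2 difference of at least 1, and at an unadjusted p under 0.05 the number higher was 0 as well. Among all tested genes, passage-8 cells had 20.3% higher and 18.8% lower, CD45-negative cells 20.3% higher and 19.2% lower, and CD45-positive cells 18.3% higher and 19.8% lower.

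The median log2 difference of the 30 genes from ventricle was -3.79 in passage-8 cells, -4.06 in CD45-negative cells and -3.79 in CD45-positive cells, beside 0.05, 0.06 and -0.02 for all tested genes. With members that were not measured in the cells set to their bounds these medians were -3.79, -4.01 and -3.75. Of the 27 that passed, Esrra changed least, by -1.64 in passage-8 cells, -2.49 in CD45-negative cells and -2.01 in CD45-positive cells. Among those measured on both sides, the largest changes were -8.82 (Pdk4) in passage-8 cells, -10.43 (Fabp3) in CD45-negative cells and -8.38 (Cpt1b) in CD45-positive cells. Ppargc1a, not well above background in the CD45-negative and CD45-positive cells, has only a bound there and no place in this order. The 3 members that did not pass were Cpt1a, Ppara and Ppargc1b in passage-8 cells, and Cpt1a, Ppara and Ucp3 in the CD45-negative and in the CD45-positive cells. The 3 comparisons share the ventricle arrays. Tissue of origin, culture and the reagents for RNA extraction changed together with the contrast of cells and ventricle and cannot be told apart. In tissue RNA, fewer cells of a type and less RNA per cell cannot be told apart either, and the part of the cardiomyocyte, fat cell and other markers given above in these differences was not tested.

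**Figure D1:**
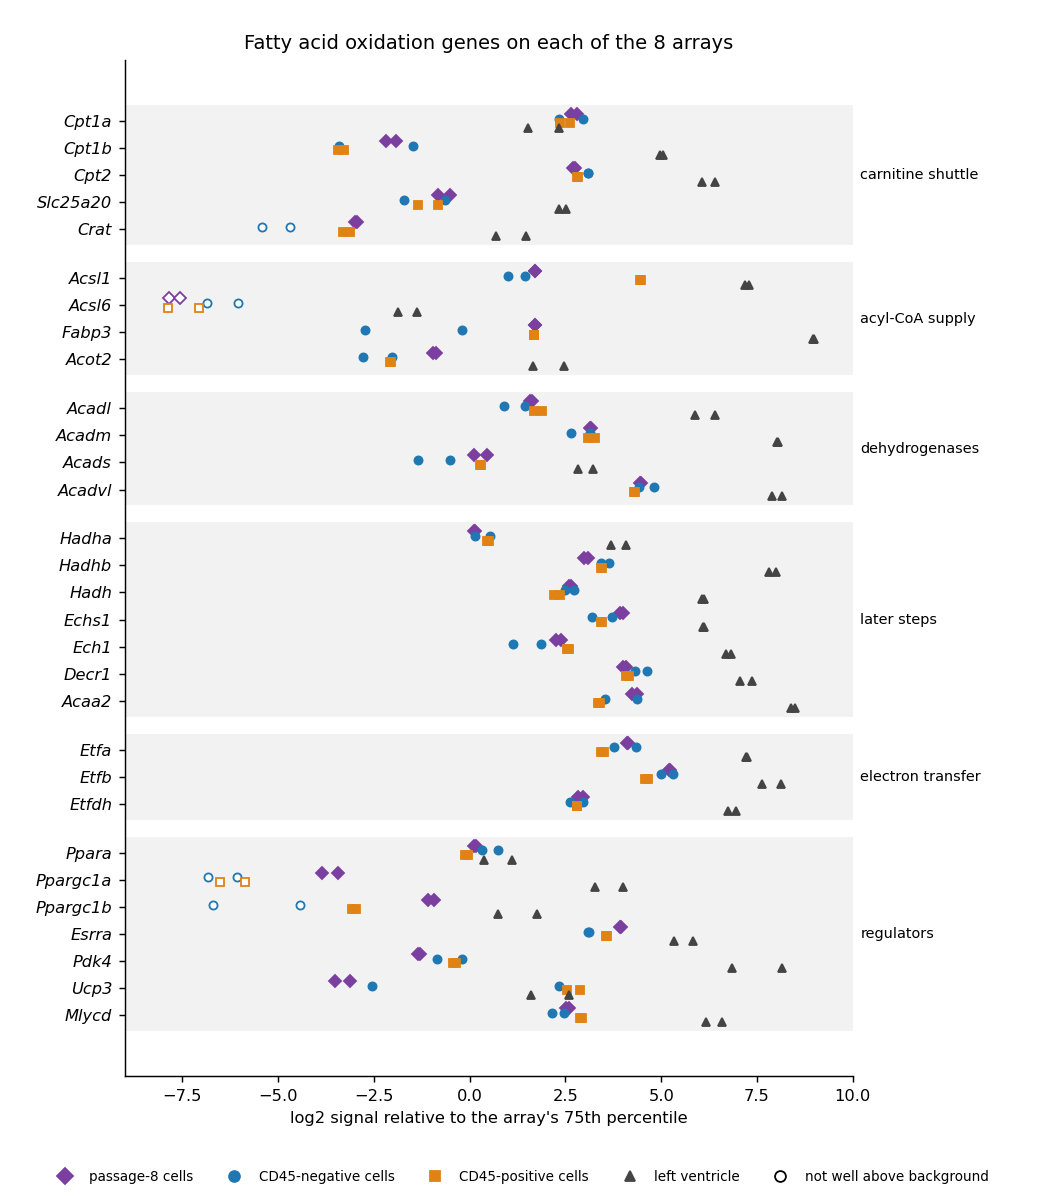
Level of each fatty acid oxidation gene on each of the 8 arrays, as log2 signal relative to the 75th percentile of the array (horizontal axis), with genes grouped by role and open symbols for arrays where the probe was not well above background. For most genes the ventricle triangles stand to the right of all cell symbols, while those of Cpt1a stand to the left of all cell symbols and those of Ppara and Ucp3 among or near them; levels of different probes are not comparable with each other.

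The carnitine shuttle moves long-chain acyl groups into mitochondria, and 4 of its 5 genes were lower in each cell group, with the exception of Cpt1a. Cpt1b, the muscle form of the outer-membrane carnitine palmitoyltransferase that starts the shuttle, stood at -2.19 and -1.92 in passage-8 cells, -3.40 and -1.48 in CD45-negative cells, -3.44 and -3.29 in CD45-positive cells, against 5.05 and 4.97 in ventricle. Every cell array lay far below both ventricle arrays. The log2 difference from ventricle was -7.06 in passage-8 cells, -7.45 in CD45-negative cells and -8.38 in CD45-positive cells (SE 0.60 each, limma adjusted p = 0.000488, 0.000425 and 0.000316). Without CD45-negative replicate 1 or 2 their value was -6.50 or -8.41. The Cpt1b probe lies on chromosome 15 from 89246836 to 89246895 (mm9).

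Cpt1a, the liver form of the same enzyme, which many other tissues also use, had small positive differences. It stood at 2.80 and 2.66 in passage-8 cells, 2.95 and 2.34 in CD45-negative cells, 2.35 and 2.61 in CD45-positive cells, against 1.53 and 2.33 in ventricle. All 6 cell arrays were above both ventricle arrays, the lowest of them narrowly. The log2 differences of 0.80, 0.71 and 0.55 did not pass (SE 0.36 each, limma adjusted p = 0.117, 0.152 and 0.258). A further Cpt1a probe stood at -0.30 and -0.24 in passage-8 cells, -1.71 and -2.00 in CD45-negative cells, -0.70 and -0.52 in CD45-positive cells, against -0.31 and 0.05 in ventricle. In CD45-negative cells it was lower than in ventricle (log2 difference -1.73, SE 0.25, limma adjusted p = 0.00305 over all probes), so the Cpt1a probes differ for these cells. The Cpt1a probe that stands for the gene lies on chromosome 19 from 3385374 to 3385433 (mm9).

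The remaining shuttle genes were lower as well. Cpt2, the inner-membrane transferase, stood at 2.69 and 2.76 in passage-8 cells, 3.10 and 3.08 in CD45-negative cells, 2.80 and 2.83 in CD45-positive cells, against 6.41 and 6.06 in ventricle, with log2 differences of -3.51, -3.15 and -3.42. A further Cpt2 probe stood at -2.14 and -1.99 in passage-8 cells, -4.11 and -5.09 (not well above background) in CD45-negative cells, -2.04 and -2.16 in CD45-positive cells, against 1.63 and 1.31 in ventricle, and was lower in each cell group too. Slc25a20, the translocase that exchanges acylcarnitine for carnitine, had log2 differences of -3.10, -3.60 and -3.51. Crat, which moves short acyl groups onto carnitine, stood at -3.00 and -2.93 in passage-8 cells, -3.13 and -3.31 in CD45-positive cells, against 1.46 and 0.68 in ventricle. It was not well above background on either CD45-negative array, which puts it at least 40.3-fold lower there than in ventricle (limma adjusted p = 0.000203). Crat was 16.5-fold lower in passage-8 cells and 19.6-fold lower in CD45-positive cells.

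Of the proteins that bind fatty acids, activate them to acyl-CoA or split acyl-CoA again, 4 of 4 were lower in each cell group. Fabp3, the heart fatty acid binding protein, stood at 1.70 on both passage-8 arrays, -2.73 and -0.19 in CD45-negative cells, 1.67 and 1.69 in CD45-positive cells, against 8.99 and 8.95 in ventricle. It was 154-fold lower in passage-8 cells, 1379-fold lower in CD45-negative cells and 157-fold lower in CD45-positive cells. The limma adjusted p-values were 0.000972, 0.000336 and 0.000984. The CD45-negative replicates were far apart, and without replicate 1 or 2 of these cells the log2 difference of -10.43 was -9.16 or -11.70. The Fabp3 probes lie on chromosome 4 from 129992643 to 129992702 and from 129992652 to 129992711 (mm9), share 51 bases and differed by 0.13 to 0.48 log2 units on the same array.

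Acsl1, the main long-chain acyl-CoA synthetase of heart muscle, stood at 1.71 and 1.70 in passage-8 cells, 1.01 and 1.45 in CD45-negative cells, 4.46 and 4.48 in CD45-positive cells, against 7.29 and 7.18 in ventricle. The CD45-positive arrays lay between ventricle and the other cells. Acsl1 was 46.1-fold lower than in ventricle in passage-8 cells, 64.4-fold lower in CD45-negative cells and 6.82-fold lower in CD45-positive cells, with limma adjusted p = 8.99e-05, 7.36e-05 and 0.00046. Acsl6, a synthetase best known from brain, was well above background only on the ventricle arrays, at -1.87 and -1.38, by the probe that stands for it. That puts it at least 15.3-fold lower in passage-8 cells, at least 6.21-fold lower in CD45-negative cells and at least 13.2-fold lower in CD45-positive cells. A further Acsl6 probe was not well above background in ventricle, at -4.98 and -5.37. It was well above background only on passage-8 replicate 2, at -4.24, so the Acsl6 calls rest on the choice of probe. Acot2, a mitochondrial thioesterase that splits acyl-CoA, stood at -0.95 and -0.87 in passage-8 cells, -2.02 and -2.77 in CD45-negative cells, -2.07 and -2.06 in CD45-positive cells, against 1.65 and 2.47 in ventricle. It was 7.83-fold, 21.9-fold and 17.5-fold lower in those cell groups. Acot2 has close relatives beside it in the genome, so cross-hybridisation of its probe is possible and was not tested.

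The acyl-CoA dehydrogenases take the first pair of electrons from acyl-CoA, each for its own range of chain lengths, and 4 of 4 were lower in each cell group. Acadm, for medium chains, stood at 3.18 and 3.15 in passage-8 cells, 3.14 and 2.63 in CD45-negative cells, 3.09 and 3.27 in CD45-positive cells, against 8.05 and 8.02 in ventricle. It was 29.3-fold, 35.5-fold and 28.9-fold lower in those cell groups (limma adjusted p = 0.000126, 0.000118 and 0.000143). Acadl, for long chains, was 23.3-fold, 31.3-fold and 20.5-fold lower. Acadvl, for very long chains, had log2 differences of -3.56, -3.40 and -3.73. Acads, for short chains, stood at 0.46 and 0.10 in passage-8 cells, -0.50 and -1.36 in CD45-negative cells, 0.26 and 0.30 in CD45-positive cells, against 3.22 and 2.83 in ventricle. Its log2 differences were -2.75, -3.95 and -2.74, so it moved least of these 4 genes in passage-8 and CD45-positive cells.

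The later steps of each round showed the same direction, with 7 of 7 lower in each cell group. Hadha and Hadhb are the subunits of the trifunctional protein, which hydrates, oxidises and cleaves long-chain intermediates. Hadhb stood at 3.09 and 2.99 in passage-8 cells, 3.63 and 3.43 in CD45-negative cells, 3.42 and 3.47 in CD45-positive cells, against 7.83 and 8.01 in ventricle, and was 29.4-fold, 20.9-fold and 22.2-fold lower in those cell groups (limma adjusted p = 9e-05, 0.000116 and 0.000117). Hadha had log2 differences of -3.76, -3.55 and -3.42. Acaa2, the thiolase that ends a round, was 17.6-fold, 22.3-fold and 33.3-fold lower. Hadh, the short-chain hydroxyacyl-CoA dehydrogenase, had log2 differences of -3.46, -3.48 and -3.81.

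Echs1, the short-chain enoyl-CoA hydratase, had the smallest differences of these 7 in passage-8, CD45-negative and CD45-positive cells, at -2.12, -2.64 and -2.66. Ech1 and Decr1 handle unsaturated fatty acids, Ech1 as an isomerase and Decr1 as a reductase. Ech1 stood at 2.26 and 2.37 in passage-8 cells, 1.86 and 1.13 in CD45-negative cells, 2.60 and 2.55 in CD45-positive cells, against 6.82 and 6.68 in ventricle, and was 21.6-fold, 38.2-fold and 18.1-fold lower in those cell groups. Decr1 had log2 differences of -3.17, -2.74 and -3.10. The electron transfer flavoprotein, made of the Etfa and Etfb subunits, passes electrons to the ubiquinone reductase Etfdh. All 3 genes were lower in each cell group, Etfa with log2 differences of -3.11, -3.18 and -3.77 (-3.04, -4.54 and -3.60 by its further probe), Etfb with -2.65, -2.72 and -3.26, and Etfdh with -3.96, -4.06 and -4.05.

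**Figure D2:**
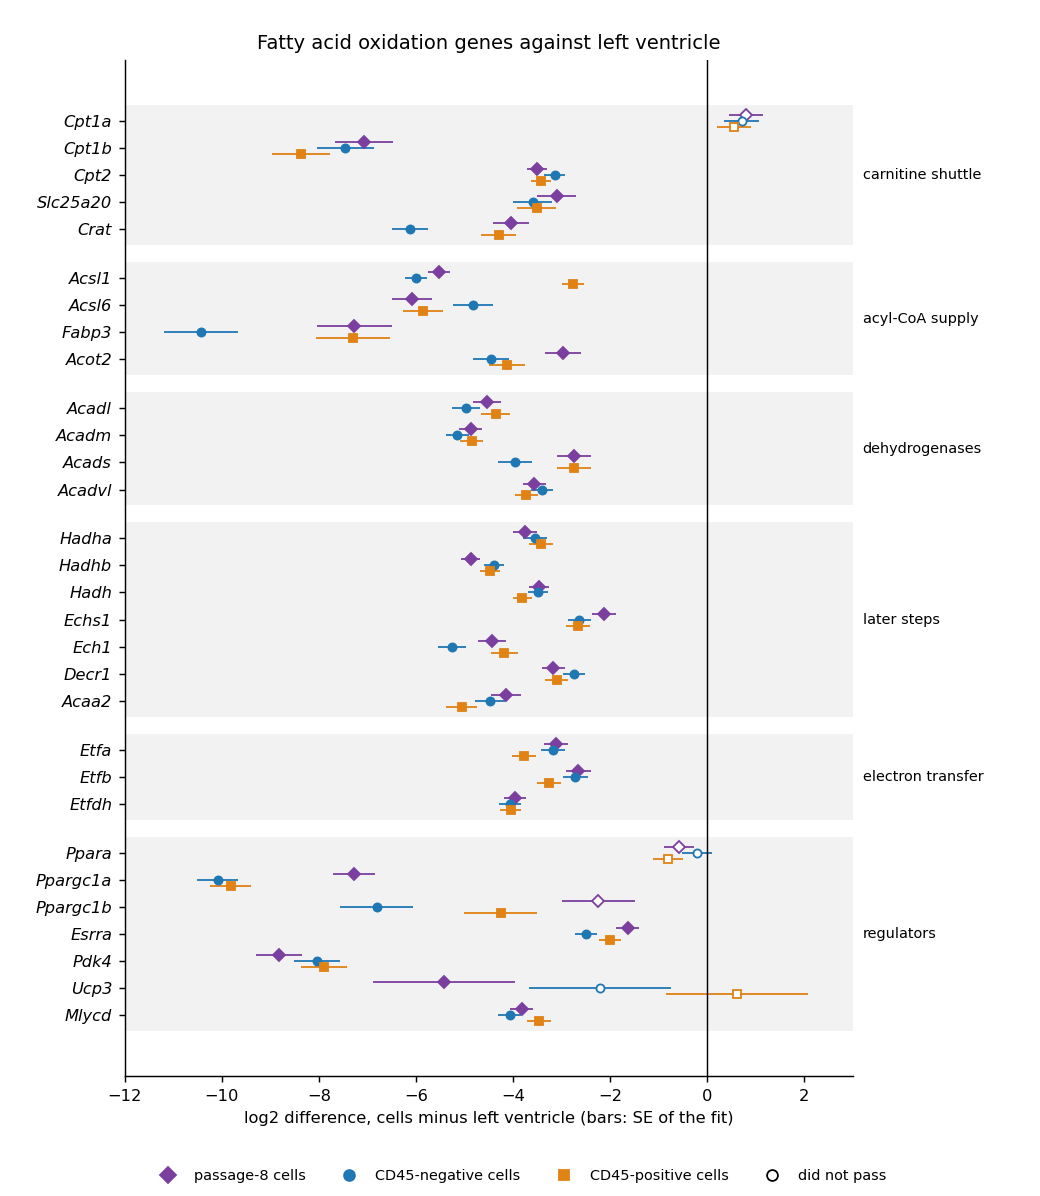
Log2 difference between each cell group and left ventricle for the 30 genes, with the SE of the fit as bars and open symbols where the gene did not pass. Almost all symbols lie well left of 0, with those of Cpt1a and Ppara near 0 and a wide spread among cell groups for Ucp3 and Ppargc1b; values of Acsl6, Ppargc1a, Ppargc1b and Crat in cells where they were not well above background are fitted on background signal.

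Of the 7 regulators, Ppargc1a, Esrra, Pdk4 and Mlycd were lower in each cell group, Ppargc1b in the CD45-negative and CD45-positive cells and Ucp3 in the passage-8 cells, while the probe that stands for Ppara passed in none. Ppargc1a, a coactivator of mitochondrial and fatty acid oxidation genes, stood at -3.86 and -3.44 in passage-8 cells and at 4.01 and 3.26 in ventricle. On the CD45-negative and CD45-positive arrays it was not well above background. It was 156-fold lower in passage-8 cells, at least 238-fold lower in CD45-negative cells and at least 506-fold lower in CD45-positive cells than in ventricle (limma adjusted p = 0.000186, 9.42e-05 and 0.000108). With normexp background correction the log2 difference in CD45-negative cells was -6.06, a smaller change than 238-fold. The bounds therefore hold only for the reported processing. A further Ppargc1a probe was well above background only in ventricle, at 0.05 and -0.07, and was at least 46.6-fold lower in passage-8 cells and at least 40.4-fold lower in CD45-positive cells.

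Its relative Ppargc1b stood at -1.09 and -0.93 in passage-8 cells, -2.97 and -3.07 in CD45-positive cells, against 1.75 and 0.73 in ventricle, and was not well above background in CD45-negative cells. It was at least 45.2-fold lower than in ventricle in CD45-negative cells and 19.1-fold lower in CD45-positive cells, with limma adjusted p = 0.00113 and 0.00635. The fitted log2 difference in CD45-negative cells, on background signal, was -5.67 or -7.95 without their replicate 1 or 2. In passage-8 cells its log2 difference of -2.25 did not pass (SE 0.75, limma adjusted p = 0.0536). Esrra, the estrogen-related receptor that binds these coactivators, stood at 3.93 and 3.96 in passage-8 cells, 3.08 and 3.10 in CD45-negative cells, 3.59 and 3.56 in CD45-positive cells, against 5.82 and 5.34 in ventricle. It was 3.11-fold, 5.62-fold and 4.02-fold lower in those cell groups, the smallest change among the members that passed in each.

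Pdk4, the kinase that blocks pyruvate dehydrogenase and so spares glucose carbon, stood at -1.35 and -1.29 in passage-8 cells, -0.86 and -0.21 in CD45-negative cells, -0.44 and -0.35 in CD45-positive cells, against 6.84 and 8.16 in ventricle. It was 452-fold, 263-fold and 238-fold lower in those cell groups (limma adjusted p = 0.000149, 0.000192 and 0.000196). The ventricle replicates of Pdk4 were apart, and without replicate 1 or 2 of ventricle the log2 difference was -9.48 or -8.16 in passage-8 cells, -8.70 or -7.38 in CD45-negative cells and -8.55 or -7.24 in CD45-positive cells. Mlycd, which removes malonyl-CoA, the inhibitor of the Cpt1 enzymes, was 14.1-fold, 16.8-fold and 11.0-fold lower.

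Ppara and Ucp3 were each read by several probes that gave different answers. Their first 30 of 60 bases are printed here because the choice of probe decides the result for these genes, and positions are those of the whole probe on the + strand in mm9.
Ppara, the first probe, chr15:85632110-85632169: ctttgaaaacctacaagtcaaggtgtggcc
Ppara, the second probe, chr15:85632534-85632593: aaatgctcctctaggcccctcctttggcag
Ppara, the third probe, chr15:85637193-85637252: cctgtaagctgatgaatgtaaagagttaat
Ucp3, the first probe, chr7:107630399-107630458: aagaaatgccattgtcaactgtgctgagat
Ucp3, the second probe, chr7:107634291-107634350: caatgttttaggagagattctgtccagaga

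Ppara is the fatty acid sensing nuclear receptor of heart and liver. The second probe, which stands for Ppara because it has the highest mean, read 0.18 and 0.12 in passage-8 cells, 0.31 and 0.74 in CD45-negative cells, -0.05 and -0.11 in CD45-positive cells, against 1.10 and 0.37 in ventricle. Its log2 differences from ventricle of -0.59, -0.21 and -0.81 did not pass (limma adjusted p = 0.171, 0.615 and 0.0800), except that without replicate 2 of ventricle the CD45-positive cells passed at -1.17. The first Ppara probe read -2.44 and -2.55 in passage-8 cells, -1.91 and -3.03 in CD45-negative cells, -4.25 and -4.38 in CD45-positive cells, against 3.74 and 2.54 in ventricle. With this probe every cell array lay below both ventricle arrays, by log2 differences of -5.64, -5.61 and -7.45 (limma adjusted p = 0.000671, 0.000681 and 0.00032 over all probes). The third Ppara probe read -3.98 and -4.07 in passage-8 cells, -2.59 and -4.53 in CD45-negative cells, and 2.67 and 1.66 in ventricle, with log2 differences of -6.19 and -5.73 in those cells. In CD45-positive cells it was not well above background, at least 183-fold lower than in ventricle. The mean of all Ppara probes was lower in each cell group, by -4.14 in passage-8 cells, -3.85 in CD45-negative cells and -5.73 in CD45-positive cells, and passed.

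Ucp3 encodes an uncoupling protein of muscle mitochondria that rises with fatty acid supply. The first probe, which stands for Ucp3, read -3.51 and -3.12 in passage-8 cells, 2.32 and -2.54 in CD45-negative cells, 2.54 and 2.89 in CD45-positive cells, against 1.61 and 2.59 in ventricle. The CD45-positive cells and ventricle overlapped on this probe, while 1 CD45-negative array lay within the ventricle range and the other far below it. In passage-8 cells it was 42.8-fold lower than in ventricle (log2 difference -5.42, SE 1.47, limma adjusted p = 0.0272). This call was lost without replicate 1 or 2 of either group, with adjusted p from 0.0717 to 0.125. In CD45-negative cells the log2 difference was -2.21 (limma adjusted p = 0.263), and -4.64 or 0.22 without their replicate 1 or 2. In CD45-positive cells it was 0.61 (limma adjusted p = 0.761).

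The second Ucp3 probe was well above background only in ventricle, at 0.90 and 1.23, and was at least 98.4-fold lower in passage-8 cells, at least 40.1-fold lower in CD45-negative cells and at least 85.2-fold lower in CD45-positive cells, with limma adjusted p = 0.000764, 0.000928 and 0.000757 over all probes. The neighbouring gene Ucp2, an uncoupling protein found in many tissues and in macrophages, was read by a probe on the same strand from 107647809 to 107647868. Ucp2 stood at -3.63 and -3.89 in passage-8 cells, 2.13 and -2.34 in CD45-negative cells, 2.25 and 2.44 in CD45-positive cells, against 0.25 and 1.59 in ventricle. Array by array, its high and low cell samples are the same as those of the first Ucp3 probe. Whether that probe reads transcripts of Ucp2 was not tested.

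**Figure D3:**
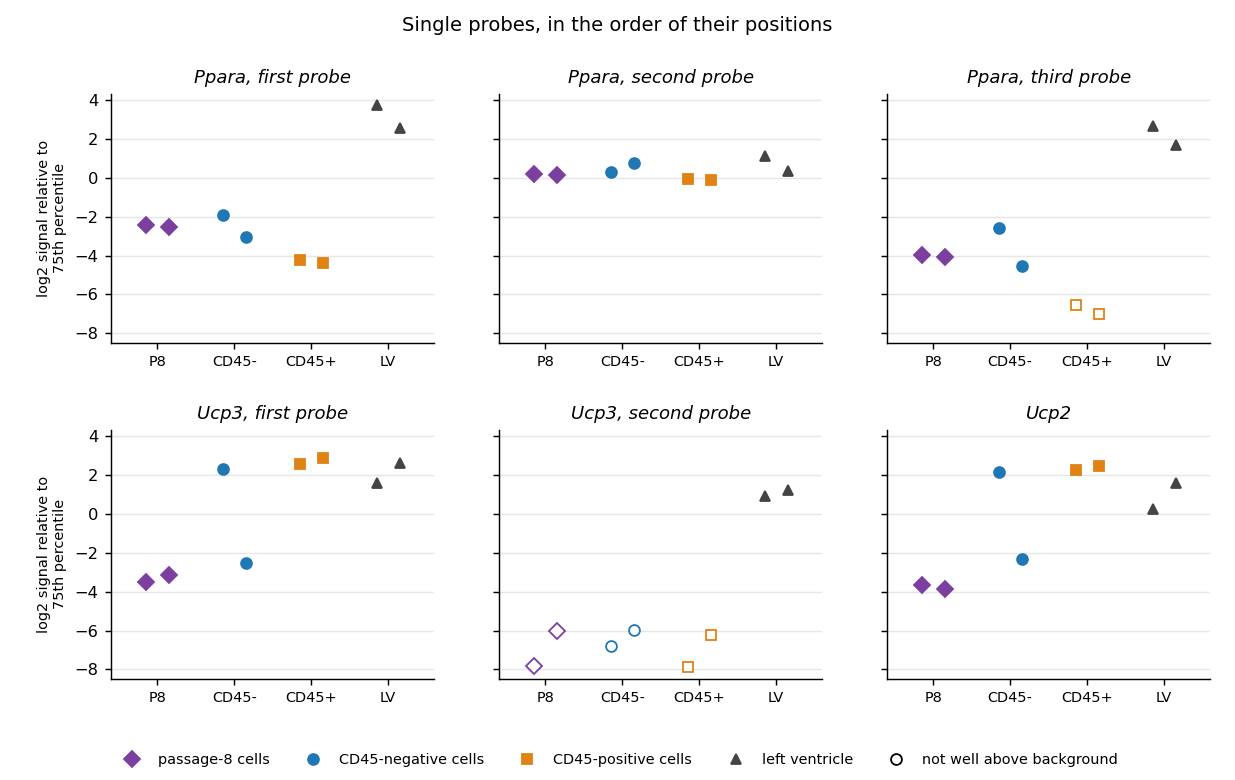
Log2 level on each array, set against its 75th percentile, for single probes of Ppara and Ucp3, in the order of their positions, and for the Ucp2 probe (P8, passage-8 cells; CD45- and CD45+, the sorted primary cells; LV, left ventricle; open symbols, not well above background). The second Ppara probe is flat while the first and the third are high only in ventricle, and the first Ucp3 probe runs with Ucp2 while the second is high only in ventricle.

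Between the cell groups most members did not pass a test. In CD45-negative against CD45-positive cells, 28 members were tested, of which 0 were higher and 4 lower, 14.3% of those tested. Over all genes tested in this comparison 11.2% were higher and 10.5% lower, and the median member differed by -0.11. At an unadjusted p under 0.05 in limma 0 members were higher and 7 lower. The 4 were Acsl1, 9.43-fold lower (log2 difference -3.24, SE 0.23, limma adjusted p = 0.00208), Fabp3, 8.81-fold lower (log2 difference -3.14, SE 0.76, limma adjusted p = 0.0322), Crat, at least 2.05-fold lower (limma adjusted p = 0.0183), and Ech1, 2.11-fold lower (limma adjusted p = 0.0405). Of 14 alternatives, the call was lost under 7 for Ech1, 5 for Crat and 3 for Fabp3. Crat was tested only through its level in CD45-positive cells. Levels on each array are those given above, and both CD45-negative arrays lay below both CD45-positive arrays for each of the 4. That adds no support, because the 4 were chosen by passing on these same arrays. By further probes that did not stand for their genes, Cpt1a (-1.24) and Cpt2 (-2.50) were lower too, and the third Ppara probe was at least 3.45-fold higher. With normexp the Crat difference turned to 0.31.

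Acsl1 was the 1 member that still passed when the fit held the 4 arrays compared alone. Without CD45-positive replicate 1 or 2 1 member passed, and without replicate 1 of the CD45-negative cells 7. The Fabp3 log2 difference was -1.87 or -4.41 without CD45-negative replicate 1 or 2, so its size rests on which of them is used. Macrophage markers summed to 60.5 and 106 in CD45-negative cells and 1033 and 1009 in CD45-positive cells, with 11 of 12 lower and 1 higher. Fibroblast markers summed to 1480 and 1568 in CD45-negative cells and 642.1 and 614.5 in CD45-positive cells. Smooth muscle and pericyte markers summed to 229.2 and 206.1 against 70.31 and 72.38. The part of these markers in the 4 lower members was not tested. Digestion strength and sort gate changed together and cannot be told apart.

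In passage-8 against CD45-positive cells, the cells they derive from per the labels, 29 members were tested, of which 1 was higher and 2 lower, beside 12.6% higher and 10.9% lower over all genes. Acsl1 was 6.76-fold lower (log2 difference -2.76, SE 0.23, limma adjusted p = 0.00117). The first Ucp3 probe was 65.5-fold lower (log2 difference -6.03, SE 1.47, limma adjusted p = 0.0303), a call lost without replicate 1 or 2 of either group (adjusted p from 0.086 to 0.141), and Ucp2 was lower as well, by a log2 difference of -6.10 (limma adjusted p = 0.0240). Ppargc1a was at least 3.25-fold higher (limma adjusted p = 0.00944), and its further probe was not well above background in either group. The Ppargc1a call was lost under 5 of 14 alternatives. These were normexp, the mean of all probes, only probes well above background on all 4 arrays, and leaving out replicate 2 of either group. The lowest log2 difference over the alternatives was 0.75, so this bound holds only for the reported processing. Without replicate 2 of the CD45-positive cells or replicate 2 of the passage-8 cells 1 member passed. Ppargc1a was not well above background in CD45-positive cells and was tested here only through its passage-8 level. The third Ppara probe was at least 2.51-fold higher. The other 26 tested members had log2 differences from -0.92 to 2.01, 23 of them within 1 log2 unit. Macrophage markers summed to 33.8 and 34.3 in passage-8 cells and 1033 and 1009 in CD45-positive cells, with 11 of 12 lower. In the same order, fibroblast markers summed to 1065 and 1058 against 642.1 and 614.5. Smooth muscle and pericyte markers summed to 186.8 and 185.8 against 70.31 and 72.38, and mesothelial markers to 38.33 and 34.05 against 8.306 and 7.507. The part of these markers in the differences between passage-8 and CD45-positive cells was not tested.

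In passage-8 against CD45-negative cells 5 of 29 members were higher, 17.2%, and 0 lower, beside 6.97% higher and 6.97% lower over all genes. With only probes well above background on all 4 arrays 1 member passed, so these shares do not establish a rise of the members. At an unadjusted p under 0.05 in limma 8 were higher and 0 lower. The coactivators Ppargc1b and Ppargc1a were at least 9.52-fold and at least 1.53-fold higher, and Crat at least 2.45-fold higher (limma adjusted p = 0.0157, 0.0123 and 0.0186), all of them not well above background in CD45-negative cells. These genes were tested only through their passage-8 level, so the filter itself favours the higher direction for them. A further Ppargc1a probe was not well above background in either group, with a log2 difference of -1.25 fitted on background signal. With normexp Ppargc1a (-0.28) and Crat (-0.18) turned direction. The Crat call was also lost with the authors' table, and the Ppargc1a call with the mean of all probes. The bounds above therefore hold only for the reported processing. Fabp3 was 8.95-fold higher (log2 difference 3.16, SE 0.76, limma adjusted p = 0.0448), and 1.89 or 4.43 on the log2 scale without CD45-negative replicate 1 or 2. Acot2 was 2.80-fold higher (limma adjusted p = 0.0495), a call lost under 12 of 14 alternatives. Both passage-8 arrays lay above both CD45-negative arrays for each of these 5 genes. That adds no support, because the genes were chosen by passing on these same arrays. Further probes of Cpt1a (1.59), Cpt2 (2.54) and Etfa (1.5) also passed as higher, with limma adjusted p of 0.0148, 0.0114 and 0.0321 over all probes, where the probes that stand for these genes differed by 0.09, -0.36 and 0.07. Without replicate 1 or replicate 2 of the passage-8 cells 0 members passed with limma, beside 5 and 6 higher at an unadjusted p under 0.05. Mesothelial markers, of the cells lining the heart, summed to 38.3 and 34.0 in passage-8 cells and 8.05 and 6.17 in CD45-negative cells. Higher were 5 of these 8 and lower was 1. Of 10 fibroblast markers 0 were higher and 6 lower, and of 12 macrophage markers 0 higher and 3 lower. The part of these markers in the differences was not tested.

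**Figure D4:**
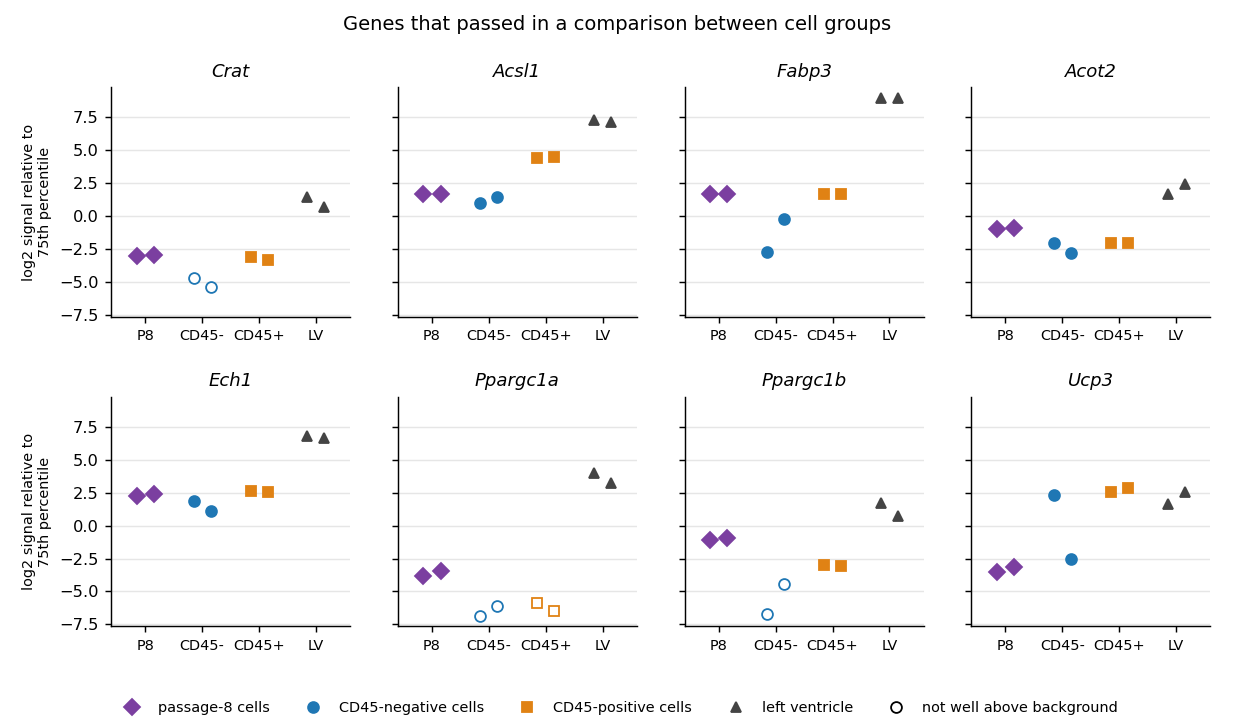
Log2 level on each array, set against its 75th percentile, for the 8 members that passed in a comparison between cell groups (P8, passage-8 cells; CD45- and CD45+, the sorted primary cells; LV, left ventricle; open symbols, not well above background). Acsl1 is highest among cells in CD45-positive cells, Ppargc1a and Ppargc1b in passage-8 cells, and the CD45-negative replicates are far apart for Fabp3 and for the Ucp3 probe.

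A wider list of 64 other genes of fatty acid metabolism moved in both directions against ventricle. Passage-8 cells had 9 higher and 32 lower, CD45-negative cells 12 higher and 32 lower, and CD45-positive cells 9 higher and 31 lower. Among all tested genes, 20.3%, 20.3% and 18.3% were higher and 18.8%, 19.2% and 19.8% lower in those cell groups. The higher genes of this list were thus no more frequent than among all tested genes. The median log2 differences were -1.11, -1.19 and -0.90, nearer 0 than those of the 30 members. The lower genes included Plin5, the lipid droplet protein of oxidative tissues, which stood at -4.26 and -4.74 in passage-8 cells and at 6.68 and 6.90 in ventricle, a log2 difference of -11.29, and was at least 2119-fold lower in CD45-negative cells and at least 3911-fold lower in CD45-positive cells. Esrrg, an estrogen-related receptor of heart muscle, was at least 106-fold lower in CD45-positive cells, and Prkaa2, a catalytic subunit of the AMP-activated kinase, had log2 differences of -6.71 in passage-8 cells, -7.71 in CD45-negative cells, where 1 of 2 arrays was well above background, and -7.16 in CD45-positive cells.

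Genes higher in the cells included relatives of the lower ones. Slc27a3, of the fatty acid transport protein family, stood at 3.26 and 3.21 in passage-8 cells, 2.42 and 1.87 in CD45-negative cells, 0.36 and 0.27 in CD45-positive cells, against -1.03 and -0.80 in ventricle. Cpt1c, a relative of the carnitine palmitoyltransferases best known from neurons, had log2 differences of 3.91, 3.41 and 2.71 in those cell groups. The acyl-CoA synthetase Acsl4, which prefers arachidonic acid, was higher by 2.80 in CD45-negative cells, Acsl3 by 2.65 and the kinase Pdk3, a relative of Pdk4, by 2.99 in passage-8 cells, and Acsl5 by 2.19 in CD45-positive cells. Fabp5, a binding protein of skin and macrophages, stood at 8.83 and 8.63 in CD45-positive cells and at 5.27 and 4.87 in ventricle, a log2 difference of 3.66. Slc27a6 was not well above background in ventricle and was at least 7.19-fold higher in CD45-negative cells.

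Among the cells, the scavenger receptor and fatty acid transporter Cd36 and the binding protein Fabp4 separated the CD45-positive cells from the others. Fabp4 stood at -1.05 and -0.94 in passage-8 cells, 1.5 and 2.29 in CD45-negative cells, and 5.44 and 5.22 in CD45-positive cells, with log2 differences from CD45-positive cells of -6.32 and -3.43 (limma adjusted p = 0.000529 and 0.00364). Cd36 stood at 2.86 and 2.99 in CD45-positive cells and was well above background on 1 of 2 arrays in passage-8 cells, at -3.97, and on 1 of 2 in CD45-negative cells, at -2.41. Both genes are also known from macrophages. Acot1, a cytosolic relative of Acot2, went the other way. It stood at 3.26 and 3.27 in passage-8 cells, 3.39 and 2.02 in CD45-negative cells, and -1.68 and -1.64 in CD45-positive cells, log2 differences of 4.93 and 4.37 (limma adjusted p = 0.00892 and 0.0151). Of this wider list, 9 were higher and 6 lower of 62 tested in passage-8 against CD45-positive cells, 8 higher and 5 lower of 61 in CD45-negative against CD45-positive cells, and 6 higher and 1 lower of 61 in passage-8 against CD45-negative cells. Over all tested genes 12.6% were higher and 10.9% lower, 11.2% and 10.5%, and 6.97% and 6.97% in these comparisons. No result about the list is read from these counts.

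By place in the cell, the 13 other mitochondrial oxidation enzymes had 10 lower and 0 higher in each cell group, with median log2 differences of -2.05 in passage-8 cells, -2.55 in CD45-negative cells and -2.21 in CD45-positive cells. The 12 genes of peroxisomal oxidation, which shortens very long chains outside mitochondria, had 4, 3 and 4 lower and 1, 1 and 0 higher in those cell groups, with medians of -0.78, -0.72 and -0.37. Named after its values were seen, the higher one was the import receptor Pex5 (log2 difference 1.15 in passage-8 and 1.46 in CD45-negative cells).

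For scale, 15 genes of the citrate cycle, which takes up the acetyl-CoA made from fatty acids, and 15 of glycolysis were set beside the members. Of the citrate cycle genes 15 of 15 were lower in each cell group, with medians of -2.68 in passage-8 cells, -3.01 in CD45-negative cells and -3.17 in CD45-positive cells. Of the glycolysis genes 5, 5 and 4 were higher and 1 lower in those cell groups, with medians of 0.66, 0.53 and 0.50. The lower one was Pfkm, the muscle phosphofructokinase, by -4.40, -4.13 and -5.25, and the glucose transporter Slc2a1 was higher by 3.18, 3.68 and 3.53.

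**Figure D5:**
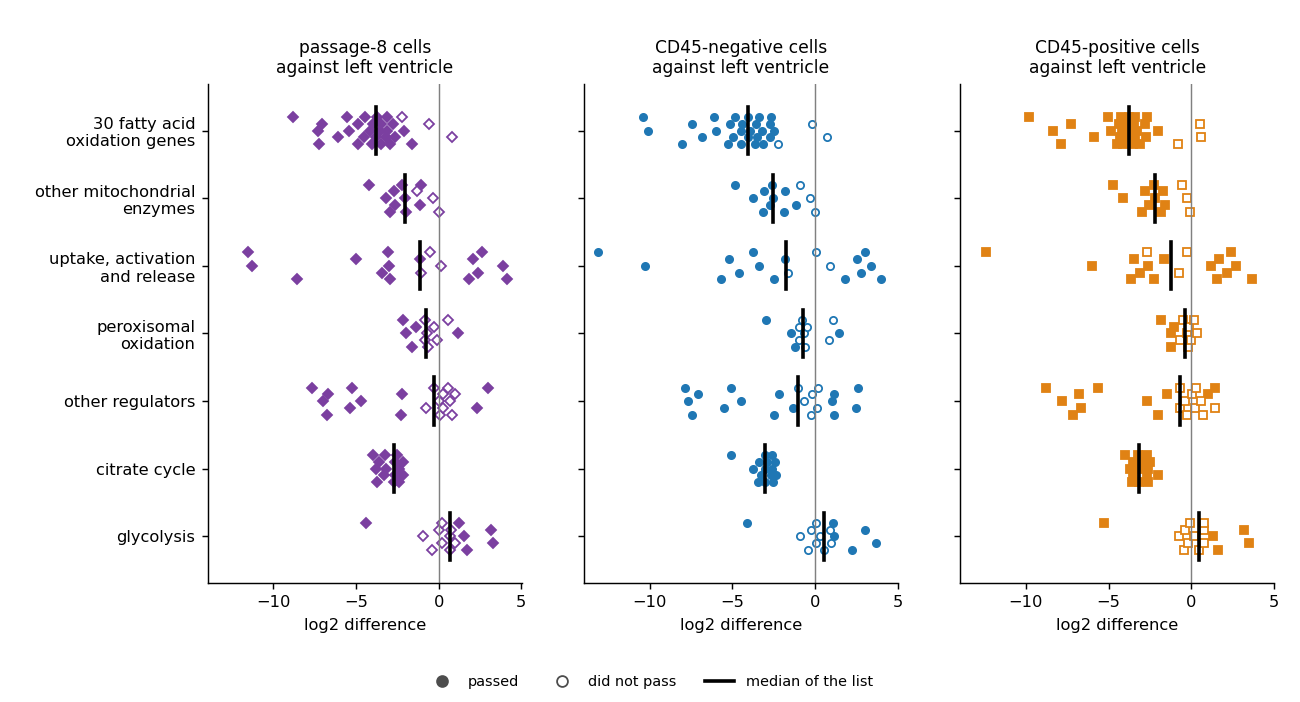
Log2 difference from left ventricle of each tested gene in 7 lists, 1 panel per cell group, with filled symbols for genes that passed and a bar at the list's median. The 30 members and the citrate cycle lie almost wholly left of 0, the glycolysis genes lie mostly near or right of 0, and the wider lists spread to both sides.

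Promoter sequence from RefSeq (GRCm38.p6), 250 bases before to 50 after each gene's start, was at hand for 25 of the 30 members. The binding sequence of estrogen-related receptors, TNAAGGTCA on either strand, was found in 1 of these 25, 4%, and in 1.43% of all 27025 gene names with a promoter. The direct repeat bound by PPAR and RXR, the hexamer AGGTCA given 2 times with any 1 base between, was found in 0 of 25 and in 0.0481% of gene names. The hexamer alone, which both motifs contain, was found in 6 of 25, 24.0%, and in 18.1% of gene names. A match in these windows is no evidence of binding, and the absence of one says nothing of more distant sites.

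The promoters below, each the 250 bases before the start and given on the gene's own strand, are that of Acsl6 with the 1 match (in 1 of the 3 promoters listed for it), in capitals on the opposite strand, and those of Fabp3, Pdk4 and Ppargc1a, members with large differences from ventricle, which hold none.
Acsl6, chr11:54303574-54303823, + strand: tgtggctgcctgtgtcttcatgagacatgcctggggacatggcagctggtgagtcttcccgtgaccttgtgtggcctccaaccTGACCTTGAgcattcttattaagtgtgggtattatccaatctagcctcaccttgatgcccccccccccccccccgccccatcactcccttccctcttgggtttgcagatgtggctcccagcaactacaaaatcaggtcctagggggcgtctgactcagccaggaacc
Fabp3, chr4:130308488-130308737, + strand: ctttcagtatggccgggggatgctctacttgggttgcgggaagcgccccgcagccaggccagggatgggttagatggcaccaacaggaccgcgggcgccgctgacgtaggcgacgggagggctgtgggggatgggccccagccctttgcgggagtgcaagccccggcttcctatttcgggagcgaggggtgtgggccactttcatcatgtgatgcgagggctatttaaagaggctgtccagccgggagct
Pdk4, chr6:5496279-5496528, - strand: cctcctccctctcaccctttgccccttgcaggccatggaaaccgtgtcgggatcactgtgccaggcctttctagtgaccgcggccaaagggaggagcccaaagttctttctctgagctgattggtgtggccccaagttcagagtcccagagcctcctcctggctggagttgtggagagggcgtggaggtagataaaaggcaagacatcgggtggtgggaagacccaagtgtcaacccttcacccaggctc
Ppargc1a, chr5:51567726-51567975, - strand: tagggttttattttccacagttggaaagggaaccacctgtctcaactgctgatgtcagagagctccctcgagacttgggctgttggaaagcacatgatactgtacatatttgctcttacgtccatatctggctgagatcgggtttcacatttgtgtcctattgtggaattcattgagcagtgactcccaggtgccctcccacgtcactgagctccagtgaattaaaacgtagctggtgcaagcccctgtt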

How the data were processed

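Total RNA of 8 samples was labelled with Cy3 and hybridised to single-colour Agilent mouse arrays on 1 slide with 1 scan time, per the file headers; RNA of cells was extracted with High Pure reagents and of ventricle with Tri-reagent, per the labels' protocols. The deposited scanner files hold spot intensity, which the submitters' processing notes credit to Feature Extraction 10.7 of Agilent, and the background-subtracted processed signal was used. A table of the authors' log2 values, with column medians near 6.09 and the same rank order as median spot signal minus local background, served as an alternative; no source used here gives its normalization.

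Each array held 62976 spots, less 3671 controls and 167 to 248 outlier spots; 0 were saturated. RefSeq accessions matched 27235 probes and updated 2838 symbols. The log2 signal minus the array's 75th percentile was fitted over all 8 arrays with limma 3.58.1 in R 4.3.3 (lmFit, eBayes; 4 residual and 5.88 total degrees of freedom), so each SE pools the spread of all groups. Genes well above background on both arrays of either group compared were tested; p-values are two-sided. An "at least" fold sets the brighter group's mean against, on each dim array, the probe's signal or, where larger, the faintest signal of any probe well above background. These bounds apply to the reported processing only, and some alternatives gave smaller changes. The fit was tested on simulated data.

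The members and lists were chosen with earlier results of these data known. All 30 members are named, beside up to 4 other pathway genes per direction and comparison that passed with the largest differences; some of these are not reported here. Same-numbered arrays share an array row, and their deviations correlated from -0.20 to 0.19 between groups. With 2 arrays per group this cannot show whether samples were paired. The labels give no pairing, and the reported fit used none. Alternatives changed scaling, background, filter, probe rule, thresholds, arrays and weights.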

Additional observations from a re-analysis of the deposited data

How the results depend on the processing

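Against left ventricle the count of 27 lower members held within 1.5 times under all 16 alternatives in each cell group, from 26 to 28 in passage-8 cells, 23 to 29 in CD45-negative cells and 25 to 29 in CD45-positive cells, and 26, 27 to 28 and 27 to 28 with 1 array left out. Counts between cell groups moved. In CD45-negative against CD45-positive cells 4 became 1 with the 4 arrays compared alone or at an adjusted p under 0.01, and 1 to 7 with 1 array left out. In passage-8 against CD45-positive cells 3 became 6 with the authors' table, the 4 arrays alone or array weights, and 1 to 2 with 1 array left out. In passage-8 against CD45-negative cells 5 became 3 with no filter on dim probes or with the replicate number as a block (Acot2 and Fabp3 lost), 1 with only probes above background on all 4 arrays, 0 with the 4 arrays alone (7 higher at an unadjusted p under 0.05 in limma) or at an adjusted p under 0.01 (8 higher), and 0 to 7 with 1 array left out. The block also gave Acads and took Ech1 a call in CD45-negative against CD45-positive cells. Over all genes, the number passing ran from 693 to 6028 (4706 as reported), 2194 to 6895 (5546) and 181 to 5194 (3193) in these 3 comparisons.

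A difference that passed under the reported or the other setting changed sign in 6 cases. With normexp the log2 difference of Crat was 0.31 in CD45-negative against CD45-positive cells and -0.18 in passage-8 against CD45-negative cells, and that of Ppargc1a -0.28 in passage-8 against CD45-negative cells. With the mean of all probes Ucp3 was -3.76 in CD45-positive cells against ventricle, and Cpt2 was -1.11 in CD45-negative against CD45-positive cells and 1.09 in passage-8 against CD45-negative cells. The cause was not tested for normexp; for the mean of probes, the probes of these genes differ. Of 2520 member values under alternatives 2404 kept their side of the threshold, 56 of them with a change of sign that passed under neither setting, 66 lost and 44 gained a call, and Acot2 in passage-8 against CD45-negative cells lost it under 12 of 14. Ppargc1b in passage-8 cells against ventricle passed under 6, among them the authors' table (-2.24). Median centring moved the median of all genes by 0.19, 0.14 and 0.28 in passage-8, CD45-negative and CD45-positive cells against ventricle. The share of all calls that were higher was 58.6% with median centring and 48.0% as reported in CD45-positive cells against ventricle, 36.3% and 51.7% in CD45-negative against CD45-positive cells, 42.5% and 53.6% in passage-8 against CD45-positive cells, and with normexp 31.0% and 50% as reported in passage-8 against CD45-negative cells. With normexp, Ppargc1a in CD45-negative cells, where it was not well above background, was -6.06 from ventricle in place of -10.09. Over the alternatives, Crat and Ppargc1b in CD45-negative cells differed from ventricle by as little as -3.24 and -3.59. The changes of -6.06, -3.24 and -3.59 are smaller than the "at least" folds given above for these genes. The same holds for Acsl6 against ventricle, with changes as small as -2.53 in passage-8, -1.21 in CD45-negative and -2.46 in CD45-positive cells. It also holds for Ppargc1a in CD45-positive cells against ventricle (-7.09). Between cell groups it holds for Ppargc1b in passage-8 against CD45-negative cells (1.44) and Ppargc1a in passage-8 against CD45-positive cells (0.75).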
